A study of Mus musculus with 2 samples.

Results

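Among single femur cells sorted for a cathepsin K lineage reporter, 81 of 653 kept wells passed a limit on summed Mfap5 and Cd34 transcripts but held next to none of Ly6a. Both Mfap5 and Cd34 were counted in 55 of the 81. A well here is the position of a plate into which 1 cell was sorted. Members were chosen by their own counts: wells with 500 genes or more, no more than 20% of counts from mitochondrial genes, Mfap5 and Cd34 summing to at least 300 CPM (counts scaled to a total of 1000000), Ly6a under 100 CPM, and Ucma, Matn3, Col9a1 and Lect1 summing to under 4000 CPM. Animal 1 gave 46 members of 318 kept wells (14.5%, exact binomial interval 10.8% to 18.8%) and animal 2 gave 35 of 335 (10.4%, 7.39% to 14.2%). These intervals cover counting error only.

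The cells came from 2 C57/B6 mice of 1 litter at age Day 6, both CTSK-cre+ mTMG, and were labelled as mesenchymal cells of the femur. Ctsk, the gene of the protease cathepsin K, lends its promoter to the Cre recombinase here, and recombination turns on membrane GFP in the cell and its descendants. Each sorted GFP-positive cell therefore has present or past Ctsk promoter activity in its lineage, and cells never reached by Cre were not sampled. Animal 1 filled plate 47 and animal 2 filled plate 48, so animal and plate cannot be told apart, and the study has no second condition. The comparisons below are between groups of wells within both animals: the members, 85 wells under the same limits but with Ly6a of at least 100 CPM (Ly6a-expressing wells), 307 non-cartilage wells with less Mfap5 plus Cd34, and 179 cartilage wells with less Mfap5 plus Cd34. A further well passed the Mfap5 and Cd34 limit with a cartilage sum of 6077 CPM and entered no group.

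Mfap5 encodes a glycoprotein that sits on the fibrillin microfibrils of connective tissue, and Cd34 encodes a surface sialomucin found on fibroblasts of loose connective tissue as well as on endothelial and blood-forming cells. Ly6a encodes Sca-1, a small surface protein used to sort stromal progenitors. Fibroblasts with much Mfap5 and Cd34 surround muscle, tendon, vessels and bone, where they lay down interstitial collagen, proteoglycans and the microfibrils on which elastic fibres form.

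Most members carried both gate genes. Mfap5 (chromosome 6, 122505845 to 122529290 of build mm10) was counted with Cd34 (chromosome 1, 194938819 to 194961279) in 55 members, without it in 23, and Cd34 alone was counted in 3. Mfap5 stood at 2257 and 2956 CPM in the summed members of animals 1 and 2, against 5414 and 6176 CPM in the Ly6a-expressing wells and 9.43 and 11.4 CPM in the non-cartilage wells outside. Cd34 stood at 455 and 551 CPM in members, 869 and 964 CPM in Ly6a-expressing wells and 3.51 and 5.20 CPM outside. These values chose the wells and are a description only. Members thus held less of both gate genes than the Ly6a-expressing wells in each animal, although the limit on their sum was the same for both.

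Ly6a had no count in 62 of the 81 members and a trace in 19, and its highest member value was 28.3 CPM while the lowest Ly6a-expressing well held 265 CPM. No well under the other limits lay between 50 and 200 CPM of Ly6a. Counts of Ly6a up to the highest member value occurred in 23.5% of members, 18.9% of non-cartilage wells outside and 19.0% of cartilage wells, and a further 3.91% of the non-cartilage wells held at least 100 CPM. Mfap5 was counted in 47.2% of the non-cartilage wells outside, none above 278 CPM, whereas the lowest summed Mfap5 and Cd34 of a member was 325 CPM. Between 200 and 400 CPM lay 4 wells under the limit and 2 members. The highest cartilage sum of a member was 445 CPM.

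**Figure D1:**
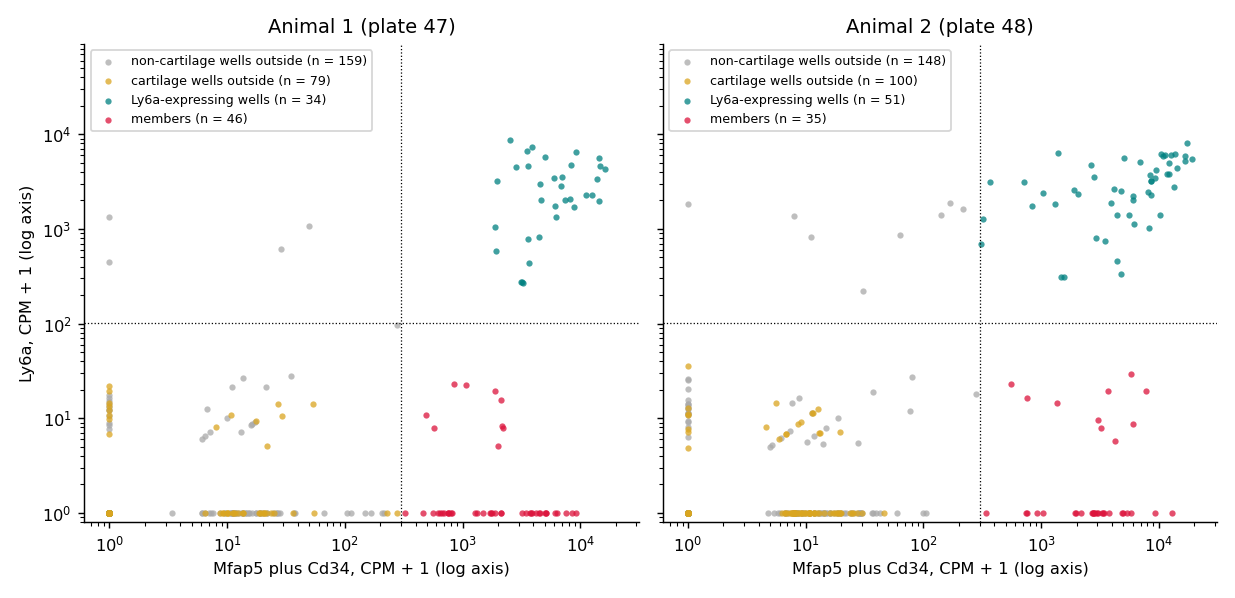
Each point is a kept well of animal 1 (left) or animal 2 (right), with summed Mfap5 and Cd34 on the horizontal axis and Ly6a on the vertical axis, both as CPM plus 1 on log axes, and dotted lines at the limits of 300 and 100 CPM. The 81 members at lower right are separated from the 85 Ly6a-expressing wells by an empty band between 28.3 and 265 CPM of Ly6a.

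Wells ranged from 20115 to 244615 counts in members, with medians of 85059 counts and 2056 genes, against 123279 counts and 2400 genes in Ly6a-expressing wells and 102947 counts and 2138 genes in the non-cartilage wells outside. Mitochondrial counts had a median of 3.27% in members. With each well thinned to 10000 counts, 21 of the 22 genes that pass against the non-cartilage wells outside passed again. So did all 7 that pass against the Ly6a-expressing wells. Both sets are described below. The thinned run tested 8018 genes and called more, 139 and 74 in these comparisons. The part of depth in the calls was not tested. Both plates used the same 95 well barcodes, and 280 combinations of quadrant and barcode occurred on both. Members came from every quadrant of each plate, at 3.57% to 19.8% of its kept wells. No doublet search was run.

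General fibroblast markers were present in all members, while each gene of the endothelial list and of a list of 5 general blood genes was counted in at most 3 members. The 13 general fibroblast markers (among them Pdgfra, Dcn, Lum and Col3a1) summed to 36413 and 28568 CPM in members of animals 1 and 2. Each member held at least 6231 CPM of them. The same markers summed to 33538 and 26494 CPM in Ly6a-expressing wells and 26336 and 18132 CPM in non-cartilage wells outside. The wider list of 20 fibroblast genes, Mfap5 and Cd34 among them, summed to 5919 and 6835 CPM in members. It summed to 14210 and 15210 CPM in Ly6a-expressing wells and 1294 and 1336 CPM in non-cartilage wells outside. These sums include the gate genes Mfap5 and Cd34 and are in part set by the rule. Pecam1, Emcn, Cldn5, Tie1 and Esam of the endothelial list had no count in any member, while Cdh5 was counted in 3, Tek in 2, Kdr in 1 and Egfl7 in 1, with up to 832 CPM of the list in a well. The list summed to 17.0 and 28.4 CPM in members and 47.3 and 13.3 CPM in the non-cartilage wells outside. Against those wells, 3 of its 4 tested genes were fitted above 0 (39.6% of all genes tested were). Their median was 4.08 over the 4, and none passed in edgeR. Of the 5 blood genes, Ptprc and Kit had no count in any member, while Spi1 was counted in 2, Laptm5 in 2 and Coro1a in 1, with up to 177 CPM in a well. The highest member value was 206 CPM for the macrophage list, 123 CPM for the neutrophil list and 87.8 CPM for the erythroid list. The osteoclast list had a median of 11.6 CPM over members and reached 550 CPM. The general fibroblast markers match a fibroblast label but were also present in the wells compared. The Mfap5 and Cd34 list lay between the Ly6a-expressing wells and the non-cartilage wells outside. That level is a description only, since the gate genes are in the sums.

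Markers of neighbouring skeletal cells appeared in some members. The tendon and ligament list summed to 3780.2 and 1946 CPM in members and to 406 and 456 CPM in Ly6a-expressing wells, and 29 of 81 members held at least 1000 CPM of it. The cartilage list reached 1000 CPM in 16 members, the articular list in 8 and the mural list (Acta2, Rgs5 and others) in 8, while no member reached that level on the osteoblast list. A single member held 3479 CPM of the adipocyte gene Fabp4. Only 1 member reached 1000 CPM of the Schwann cell list, at 2383 CPM, and only 1 of the skeletal muscle list, at 1148.5 CPM. Cartilage markers summed to 521 and 794 CPM in members against 5762 and 7590 CPM in the non-cartilage wells outside. The part of these other markers in the comparisons below was not tested, except that each comparison was repeated without the members rich in Tnmd.

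Against the non-cartilage wells outside, members held more of the microfibril genes Ltbp4 and Fbn1, of the matrix genes Col3a1 and Dcn, and of Tppp3, Gsn and Igfbp4. They held less of 6 cartilage genes, of the fibril-surface collagens Col12a1 and Col16a1, of the bone matrix gene Spp1 and of 6 others. Of 14091 genes tested, 22 passed an adjusted p of 0.05 in edgeR (0.156%), 7 higher (0.0497%) and 15 lower (0.106%) in members, and each of the 22 differed the same way in both animals. At an unadjusted p under 0.05 the test gave 1321 genes. The 7 gate genes were left out of every test. Animal was a block, so the mean difference between the 2 animals, each on its own plate, was removed. The p-values rest on how far the differences between groups varied from animal to animal, estimated over 8 sums of all well groups. The count depended on the limits and the model: it was 1 with the Mfap5 and Cd34 limit at 200 CPM and 1 with the cartilage limit at 2000 CPM, while 12 of the 22 passed without the animal block and none did in limma on mean CPM per well. All 22 kept their direction under each of these. Without the 19 members with at least 1000 CPM of Tnmd, an alternative added after seeing the data, 10 genes passed, 8 of them among the 22.

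The microfibril gene Ltbp4 (chromosome 7, 27305136 to 27337692), whose product binds latent TGF-beta to fibrillin, had the largest positive difference of the 7. It stood at 327 and 253 CPM in members of animals 1 and 2 and at 27.0 and 13.9 CPM outside (log2 difference 3.78 ± 0.27 SE, edgeR adjusted p = 0.0354). Fbn1, which encodes fibrillin-1, the backbone of microfibrils, stood at 409 and 285 CPM in members and 113 and 74.4 CPM outside (log2 difference 1.80 ± 0.14 SE, edgeR adjusted p = 0.0354). The sums of the groups overlapped in neither gene, which was so of 42.8% of all genes tested. Both were uneven among members: Ltbp4 was counted in 45 members and reached 100 CPM in 33, and Fbn1 was counted in 53 and reached 100 CPM in 36. On the fitted scale, 17 of 23 tested genes of the elastic fibre and microfibril list lay above 0 (39.6% of all genes tested did), with a median of 0.57 against -0.24 over all genes tested, and 2 of the 23 passed, both higher. Of the others, Fbln2 (fibulin-2) stood at 88.3 and 99.5 CPM in members against 15.1 and 8.41 CPM (adjusted p = 0.126) and Mfap4 at 773 and 422 CPM against 215 and 142 CPM (adjusted p = 0.137), so neither passed in edgeR.

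Interstitial matrix genes made up part of the rest. Col3a1, the chain of type III collagen, stood at 10893 and 7944 CPM in members and 4171 and 2743 CPM outside (log2 difference 1.36 ± 0.13 SE, edgeR adjusted p = 0.0484). Dcn, the collagen-binding proteoglycan decorin, stood at 6945 and 5615 CPM and 2891 and 2283 CPM (log2 difference 1.18 ± 0.10 SE, edgeR adjusted p = 0.0400). Both were near universal, Col3a1 being counted in all 81 members with a median of 6894 CPM. Type I collagen went the other way without passing, Col1a1 standing at 7963 and 4653 CPM in members and 11575 and 7968 CPM outside (log2 difference -0.76 ± 0.11 SE, edgeR adjusted p = 0.137). Col12a1 and Col16a1, which encode collagens that decorate fibril surfaces, were lower in members. Col12a1 stood at 527 and 449 CPM against 1477 and 1037 CPM (log2 difference -1.45 ± 0.12 SE, edgeR adjusted p = 0.0400) and Col16a1 at 161 and 108 CPM against 597 and 422 CPM (log2 difference -2.03 ± 0.16 SE, edgeR adjusted p = 0.0394). The collagen list of 18 tested genes thus held 1 higher and 2 lower, with a median of 0.41 against -0.24 over all genes tested. Of all genes tested, 0.0497% passed higher and 0.106% lower.

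The other 3 higher genes were Tppp3, Gsn and Igfbp4. Tppp3, a tubulin-binding protein known from tendon sheath cells, stood at 1292 and 1615 CPM in members and 253 and 237 CPM outside (log2 difference 2.45 ± 0.18 SE, edgeR adjusted p = 0.0354). Gsn, the actin-severing protein gelsolin, stood at 852 and 868 CPM and 274 and 247 CPM (log2 difference 1.62 ± 0.12 SE, edgeR adjusted p = 0.0354). Igfbp4, a secreted binder of insulin-like growth factors, stood at 1601 and 1732 CPM and 683 and 724 CPM (log2 difference 1.14 ± 0.11 SE, edgeR adjusted p = 0.0484). In Ly6a-expressing wells Tppp3 stood at 2442 and 2727 CPM, Gsn at 952 and 1010 CPM and Igfbp4 at 1109 and 1303 CPM. Igfbp6, another binder of that family, was higher in both animals at 753 and 1019 CPM against 141 and 143 CPM but missed the threshold (log2 difference 2.51 ± 0.26 SE, edgeR adjusted p = 0.0702). So did Serping1, which encodes the inhibitor of complement C1 and stood at 864 and 937 CPM against 102 and 64.5 CPM (log2 difference 3.40 ± 0.50 SE, edgeR adjusted p = 0.155).

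Of the 15 lower genes, 6 encode cartilage matrix or small cartilage proteins. Mia stood at 4.30 and 6.29 CPM in members and 412 and 664 CPM outside (log2 difference -6.77 ± 0.40 SE, edgeR adjusted p = 0.0354), and Col2a1, the chain of type II collagen, at 139 and 80.6 CPM and 1813 and 2828 CPM (log2 difference -4.55 ± 0.39 SE, edgeR adjusted p = 0.0400). Col11a1 of the same fibrils stood at 215 and 159 CPM and 1490.5 and 1372 CPM (log2 difference -3.05 ± 0.16 SE, edgeR adjusted p = 0.0354). The remaining 3 were Col9a3, Hapln1, which links hyaluronan to aggrecan, and 3110079O15Rik, the cartilage gene Snorc, with log2 differences of -5.50, -4.34 and -5.76. Both groups were under 4000 CPM of the 4 cartilage gate genes, but no member came near that limit whereas wells outside reached 3983 CPM.

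Spp1, the bone matrix protein osteopontin, stood at 15.2 and 23.0 CPM in members and 1828 and 1623 CPM outside (log2 difference -6.56 ± 0.58 SE, edgeR adjusted p = 0.0400). It was the 1 gene of 11 tested osteoblast genes to pass, while 0.106% of all genes tested passed as lower. All 11 were fitted below 0, while 39.6% of all genes tested lay above 0. Car3 had no count in any member against 146 and 152 CPM outside, without passing (edgeR adjusted p = 0.134). Frzb and Wif1, secreted inhibitors of Wnt signalling, were lower. Frzb stood at 0.453 and 1.09 CPM against 36.8 and 53.4 CPM (log2 difference -5.98 ± 0.52 SE, edgeR adjusted p = 0.0400) and Wif1 at 179 and 324 CPM against 868 and 1431 CPM (log2 difference -2.31 ± 0.18 SE, edgeR adjusted p = 0.0394). Frzb was near the limit of counting in members.

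Omd, the proteoglycan osteomodulin, stood at 216 and 149.5 CPM in members and 782 and 725 CPM outside (log2 difference -2.16 ± 0.16 SE, edgeR adjusted p = 0.0354). 1500015O10Rik, the gene of the secreted peptide augurin, stood at 1361 and 1436 CPM and 3654 and 4637 CPM (log2 difference -1.67 ± 0.15 SE, edgeR adjusted p = 0.0400). A further 2 genes passed with over 20% of their counts outside in 1 well, and are named after their values were seen. Sgms2, a sphingomyelin synthase, stood at 34.2 and 19.4 CPM in members and 237 and 108 CPM outside (log2 difference -2.73 ± 0.26 SE, edgeR adjusted p = 0.0498). Cytl1, a secreted protein of articular cartilage, had 2 counts in all members against 5616 outside, so it was 639.6-fold lower in CPM with an interval of 177-fold to 5282.5-fold that covers counting error of reads only (edgeR adjusted p = 0.0498).

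**Figure D2:**
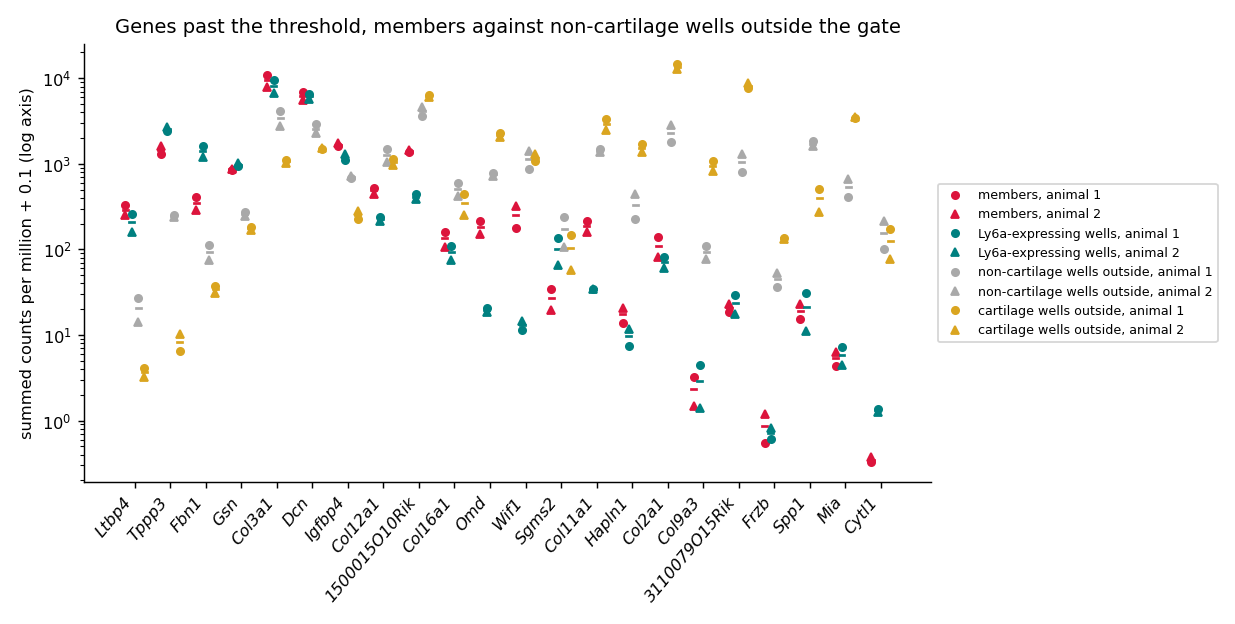
For each of the 22 genes past the threshold against the non-cartilage wells outside, points give CPM plus 0.1 on a log axis in the summed wells of animal 1 (circles) and animal 2 (triangles), with a bar at their mean, in members (red), Ly6a-expressing wells (teal), non-cartilage wells outside (grey) and cartilage wells outside (yellow). Red points lie above the grey ones in the first 7 genes and below them in the other 15. The teal points of Gsn and Dcn lie near the red ones, and those of Omd and Wif1 lie below them.

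Against all 486 wells outside, cartilage wells included, 24 of 12856 genes passed in edgeR (0.187%), 14 higher (0.109%) and 10 lower (0.0778%), and 17 of the 24 also passed against the non-cartilage wells. Cartilage genes are set by the rule in this comparison, so the 10 lower genes are given no weight. The 7 genes that passed here but not against the non-cartilage wells alone, all higher, were Entpd2, Fstl1, Gpc3, Ifitm3, Igfbp6, Scara5 and Sepp1. Entpd2, an enzyme that breaks down extracellular ATP, stood at 237 and 337 CPM in members and 2.10 and 3.13 CPM outside (log2 difference 6.67 ± 0.24 SE, edgeR adjusted p = 0.0247). It was counted in 31 members, reached 100 CPM in 25, and was counted in 4.89% of non-cartilage wells outside. Igfbp6 stood at 753 and 1019 CPM against 90.6 and 82.8 CPM (log2 difference 3.22 ± 0.18 SE, edgeR adjusted p = 0.0267) and Sepp1, the selenium carrier selenoprotein P, at 702 and 562 CPM against 94.6 and 65.1 CPM (log2 difference 2.89 ± 0.20 SE, edgeR adjusted p = 0.0422). Gpc3, a growth factor-binding glypican, stood at 771 and 603 CPM against 122 and 91.1 CPM (log2 difference 2.59 ± 0.14 SE, edgeR adjusted p = 0.0267). Scara5, a ferritin receptor, held 46.3% of its member counts in 1 well and stood at 16.3 and 0.278 CPM without it. These genes were also counted in Ly6a-expressing wells of animals 1 and 2. Entpd2 stood there at 205 and 284 CPM, Igfbp6 at 1407 and 1798 CPM and Sepp1 at 550 and 295 CPM. Gpc3 stood there at 588 and 428 CPM and Scara5 at 219 and 168 CPM. Igfbp6 and Scara5 thus had higher values in Ly6a-expressing wells than in members of both animals.

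Against the Ly6a-expressing wells, which passed the same Mfap5 and Cd34 limit, members held more Fmod, Mgp, Wif1, Omd, Col11a1 and Fam180a and less Fbn1. Of 14091 genes tested, 7 passed in edgeR (0.0497%), 6 higher (0.0426%) and 1 lower (0.0071%) in members, all the same way in both animals, and 1263 had an unadjusted p under 0.05. With Ly6a at no count in place of under 100 CPM, 1 gene passed, and the same was so with members held to 600 CPM of Mfap5 and Cd34; the 7 kept their direction under both. None passed in limma on mean CPM per well. Without the same 19 Tnmd-rich members, Mgp and Omd still passed and the other 5 did not.

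Fmod (chromosome 1, 134037254 to 134048277), the collagen-binding proteoglycan fibromodulin of tendon and cartilage, stood at 379 and 479 CPM in members and 5.84 and 3.92 CPM in Ly6a-expressing wells (log2 difference 6.44 ± 0.27 SE, edgeR adjusted p = 0.00746). Its level was uneven, with 46 members holding a count, 20 holding at least 100 CPM and 9 at least 1000 CPM. Mgp, the calcification inhibitor matrix Gla protein, was counted in all 81 members. It stood at 5602 and 6349.9 CPM against 1719.8 and 1769 CPM (log2 difference 1.74 ± 0.07 SE, edgeR adjusted p = 0.00746), and at 5118 and 5732 CPM in the non-cartilage wells outside. Neither gene's sums overlapped between members and Ly6a-expressing wells, which was so of 33.1% of all genes tested. Without the members rich in Tnmd, the Fmod difference was 5.27 (edgeR adjusted p = 0.215) and that of Mgp 1.73 (adjusted p = 0.0115).

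Wif1, the secreted Wnt inhibitor, stood at 179 and 324 CPM in members and 11.4 and 14.4 CPM in Ly6a-expressing wells (log2 difference 4.21 ± 0.20 SE, edgeR adjusted p = 0.00983), and Omd stood at 216 and 149.5 CPM and 20.3 and 18.7 CPM (log2 difference 3.18 ± 0.17 SE, edgeR adjusted p = 0.0115). A single well held 30.9% of the member counts of Wif1 and another 40.2% of those of Omd. Without that well, members stood at 179 and 161 CPM for Wif1 and 81.5 and 149.5 CPM for Omd, still above both Ly6a-expressing sums. Few members carried much of either, 9 reaching 100 CPM of Wif1 and 9 of Omd. In animals 1 and 2, Wif1 stood at 557 and 84.6 CPM in the Tnmd-rich members and 2.66 and 349 CPM in the others. The excess of Wif1 thus lay mostly in different members in the 2 animals. In animal 1 the members without much Tnmd held less Wif1 than the Ly6a-expressing wells. Col11a1 stood at 215 and 159 CPM against 34.3 and 33.9 CPM (log2 difference 2.40 ± 0.15 SE, edgeR adjusted p = 0.0263), and Fam180a at 76.3 and 80.1 CPM against 2.79 and 2.18 CPM (log2 difference 4.97 ± 0.35 SE, edgeR adjusted p = 0.0308).

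Fbn1 was the 1 gene that passed in the lower direction, at 409 and 285 CPM in members and 1617 and 1199 CPM in Ly6a-expressing wells (log2 difference -2.06 ± 0.14 SE, edgeR adjusted p = 0.0263). Members thus lay between the non-cartilage wells outside and the Ly6a-expressing wells for Fbn1, apart from each in the test. Col11a1, Omd and Wif1 also passed in both comparisons, with members between the low Ly6a-expressing wells and the high wells outside. These comparisons use the same member sums. Ltbp4, by contrast, stood at 259 and 162 CPM in Ly6a-expressing wells, and its difference from members was 0.46 ± 0.24 SE with an edgeR adjusted p of 0.627. Dcn differed by -0.01 ± 0.10 SE between members and Ly6a-expressing wells (edgeR adjusted p = 1.00).

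**Figure D3:**
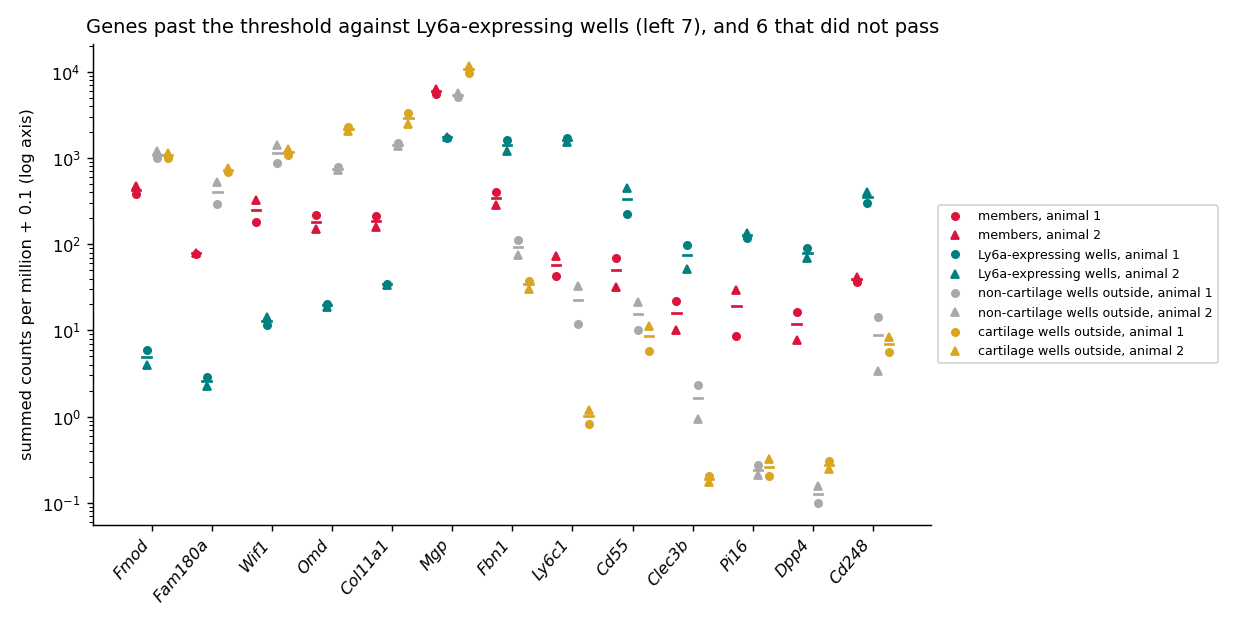
Points give CPM plus 0.1 on a log axis in the summed wells of animal 1 (circles) and animal 2 (triangles), with a bar at their mean, for the 7 genes past the threshold against Ly6a-expressing wells (left) and 6 fibroblast genes that did not pass (right), coloured by group as named beside the plot. Members (red) stand above Ly6a-expressing wells (teal) in the first 6 genes, below them in Fbn1, and below them in both animals in the 6 genes on the right.

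Fewer than 10 genes passed, so the next by p-value are given as values that did not. Rasl11a, a small GTPase, stood at 124 and 113 CPM in members against 0.762 and 0.145 CPM in Ly6a-expressing wells, and 1 well held 25.1% of its member counts. 1500015O10Rik stood at 1361 and 1436 CPM against 446 and 383 CPM, and Gadd45b, a stress response gene, at 372 and 493 CPM against 130.3 and 150.1 CPM. All 3 had an edgeR adjusted p of 0.0635.

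The genes that go with Mfap5 and Cd34 in fibroblasts mostly had lower values in members than in Ly6a-expressing wells, though none passed. On the fitted scale, 17 of 18 tested genes of that list lay below 0 (48.6% of all genes tested lay above), with a median of -2.61 against -0.03 over all genes tested. Ly6c1, a surface protein of the Ly6 family encoded near Ly6a, stood at 42.3 and 73.0 CPM in members and 1716 and 1529 CPM in Ly6a-expressing wells (log2 difference -4.96 ± 0.45 SE, edgeR adjusted p = 0.0658). Pi16, a peptidase inhibitor, stood at 8.60 and 29.5 CPM against 117 and 136 CPM (adjusted p = 0.379), and Dpp4, a surface dipeptidase, at 16.1 and 7.65 CPM against 90.9 and 69.2 CPM (adjusted p = 0.428). Pi16 was counted in 6.17% of members, 24.7% of Ly6a-expressing wells and 1.63% of non-cartilage wells outside. Against the non-cartilage wells outside, 14 of 18 genes of the list were fitted above 0 (39.6% of all genes tested were). The list median was 1.60 against -0.24 over all genes tested, and Gsn passed. The list was assembled with results of these wells known and its direction is not independent support.

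All 18 tested genes of the collagen list were fitted higher in members than in Ly6a-expressing wells, with a median of 0.70, and none passed. Of all genes tested there, 48.6% were fitted above 0, with a median of -0.03, and 0.0497% passed. Col1a1 stood at 7963 and 4653 CPM against 4501 and 2401 CPM (log2 difference 0.85 ± 0.11 SE, edgeR adjusted p = 0.167), Col6a3 at 1495 and 1134 CPM against 645 and 576 CPM (log2 difference 1.06 ± 0.12 SE, edgeR adjusted p = 0.132), and Col12a1 at 527 and 449 CPM against 236 and 217 CPM (log2 difference 1.06 ± 0.12 SE, edgeR adjusted p = 0.145). Type I collagen in members thus lay between the Ly6a-expressing wells and the wells outside in each animal. Of the 13 tested small leucine-rich proteoglycan genes, Fmod and Omd passed. Of these 13, 8 were fitted above 0 (48.6% of all genes tested were), with a median of 0.52. Aspn, or asporin, went the other way, at 1727 and 1232 CPM in members and 2609 and 2348 CPM in Ly6a-expressing wells (edgeR adjusted p = 0.418).

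Genes of actin binding and the S100 family had lower values in members than in Ly6a-expressing wells. On the fitted scale 18 of 20 genes of that list lay below 0 (48.6% of all genes tested lay above). The median was -0.74 against -0.03 over all genes tested, and none of the 20 passed in edgeR. S100a13 stood at 306 and 315 CPM against 883 and 1189 CPM (log2 difference -1.76 ± 0.15 SE, edgeR adjusted p = 0.0635) and S100a10, the partner of annexin A2, at 2555 and 3594 CPM against 4361 and 5383 CPM (log2 difference -0.71 ± 0.07 SE, edgeR adjusted p = 0.0770). S100a4 stood at 345 and 417 CPM against 1026 and 1442 CPM (log2 difference -1.72 ± 0.19 SE, edgeR adjusted p = 0.132).  Against the non-cartilage wells outside, the list had a median of 0.33 against -0.24 over all genes tested, and no gene passed.

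**Figure D4:**
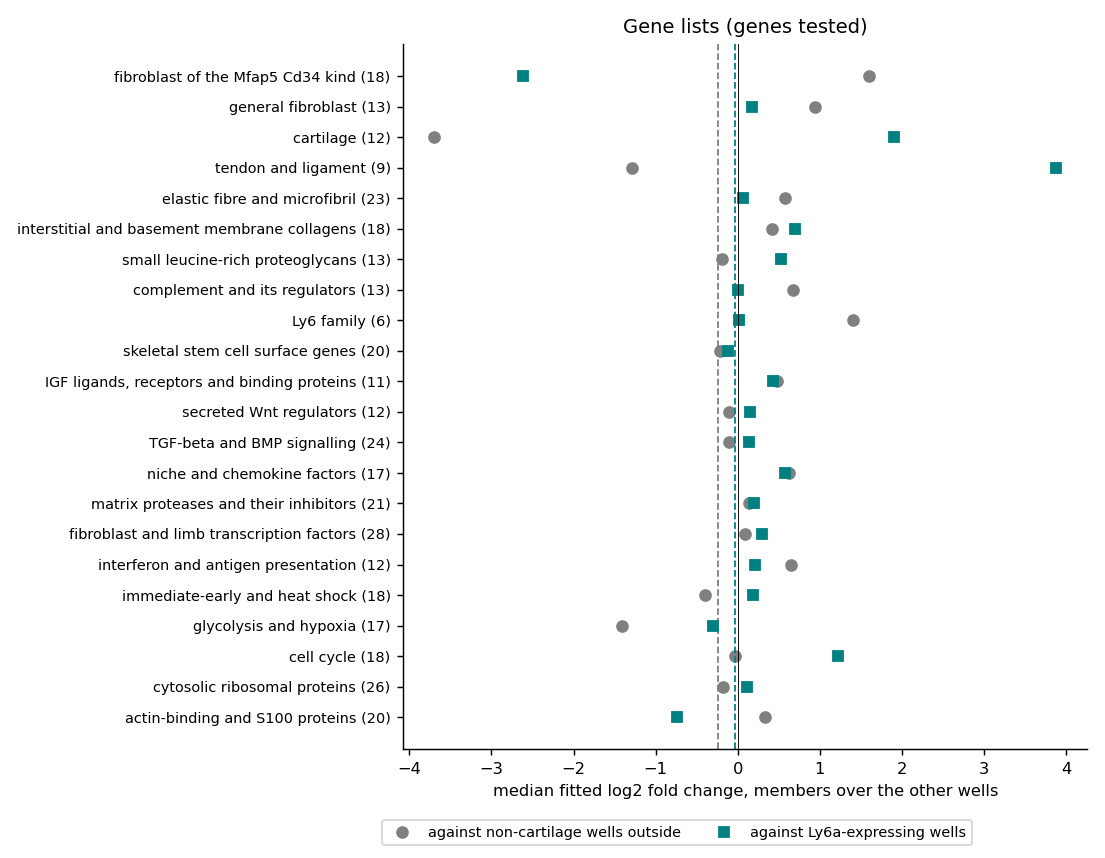
Each row is a gene list with the number of its genes tested, and points give the median fitted log2 fold change of members over the non-cartilage wells outside (grey circles) or over the Ly6a-expressing wells (teal squares), with dashed lines at the medians of all genes tested (-0.24 and -0.03). The Mfap5 Cd34 fibroblast list lies at 1.60 for the first and at -2.61 for the second, and the tendon and cartilage lists lie below 0 for the first and above 0 for the second.

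Members were not alike, and Tnmd, the tendon membrane protein tenomodulin, differed widely among them. This split was made after the values were seen and is a description with no test. In 19 members Tnmd reached at least 1000 CPM (15 in animal 1 and 4 in animal 2), with a median of 4513 CPM over those wells. In the other 62 (31 in each animal) its median was 6.95 CPM. Median depth was 90484 counts in the former and 84474 in the latter. The median of summed Mfap5 and Cd34 was 852 CPM in the former and 3060.1 CPM in the latter, so the Tnmd-rich members lay nearer the limit of 300 CPM. In animal 1 these medians were 812 and 2125 CPM. In animal 2 they were 2348 and 3228 CPM, both far above the limit. In the summed members Tnmd stood at 2217 and 774 CPM in animals 1 and 2, against 92.2 and 13.9 CPM in Ly6a-expressing wells (log2 difference 5.02 ± 0.64 SE, edgeR adjusted p = 0.167), and at 2416 and 2074 CPM in the non-cartilage wells outside.

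Some tendon and ligament genes had higher values in the Tnmd-rich members. Fmod stood at 992 and 1791 CPM in the Tnmd-rich members of animals 1 and 2 and at 92.0 and 343 CPM in the others. Kera, the proteoglycan keratocan, stood at 2405 and 790.4 CPM and 6.98 and 210.2 CPM, and Thbs4, a thrombospondin of tendon, at 801 and 1738 CPM and 110.3 and 170.4 CPM. The augurin gene 1500015O10Rik stood at 3490.1 and 4409.9 CPM and 366 and 1128 CPM. For Fmod, Kera, Thbs4 and 1500015O10Rik, the Tnmd-rich sum was above the other in each animal. Ctsk itself, whose promoter drives the Cre, stood at 416 and 499 CPM in Tnmd-rich members and 232 and 203 CPM in the others. The tendon transcription factors were sparse and went opposite ways in the animals. Scx, counted in 4 Tnmd-rich and 4 Tnmd-poor wells, stood at 72.5 and 0 CPM and 0.664 and 15.7 CPM, and Mkx, counted in 2 and 4 wells, at 23.4 and 0 CPM and 0.332 and 14.8 CPM.

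Other genes had higher values in the members poor in Tnmd. Tppp3 stood at 1681 and 1760 CPM in them and 461 and 210 CPM in the Tnmd-rich members, and Ltbp4 at 433 and 262 CPM and 100.2 and 172 CPM. Serping1 stood at 1069 and 1032 CPM and 424 and 8.75 CPM. Col4a1, a basement membrane collagen, stood at 847 and 599 CPM and 242 and 32.1 CPM, and the chemokine Cxcl12 at 394 and 192 CPM and 87.4 and 0 CPM. Each of these 5 stood higher in the Tnmd-poor members of both animals, and of them Tppp3 and Ltbp4 passed against the non-cartilage wells outside. Igfbp6, which passed against all wells outside, stood lower there, at 728 and 1014 CPM against 806 and 1076 CPM. Cd34 stood higher there, at 523 and 608 CPM against 309.8 and 0 CPM, but it is a gate gene. Dcn stood at 6894 and 5614 CPM and 7054 and 5614 CPM. The Tnmd-rich sum of animal 2 rests on 4 wells.

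**Figure D5:**
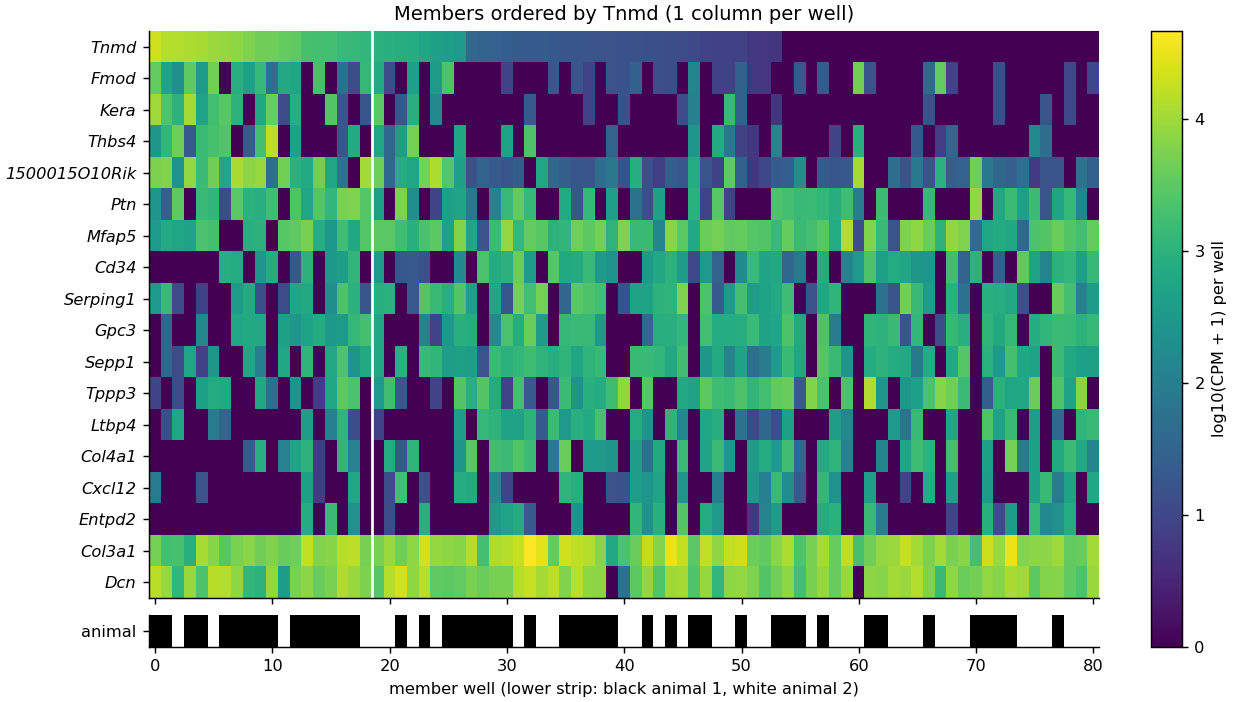
Each column is 1 of the 81 members, ordered from high to low Tnmd, each row a gene, and colour gives log10 of CPM plus 1 per well; the white line follows the 19 members with at least 1000 CPM of Tnmd, and the strip below marks the animal. Fmod, Kera and 1500015O10Rik fill mostly the left side, Ltbp4, Col4a1 and Entpd2 mostly the right, and Col3a1 and Dcn nearly every column.

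Calls in the IGF, Wnt and surface gene lists are given here. Of all genes tested, 0.156% passed against the non-cartilage wells outside and 0.0497% against the Ly6a-expressing wells. Of 11 tested IGF genes, Igfbp4 passed against the wells outside and none passed against the Ly6a-expressing wells. There Igfbp5 stood at 472 and 615 CPM in members against 1909.8 and 1683 CPM (log2 difference -1.75 ± 0.21 SE, edgeR adjusted p = 0.150), and Igfbp7 at 1657 and 1504 CPM against 845 and 471 CPM (log2 difference 1.25 ± 0.26 SE, edgeR adjusted p = 0.364). Of 12 tested secreted Wnt regulators, Frzb and Wif1 passed against the wells outside, both lower, and Wif1 against the Ly6a-expressing wells, higher. None of 20 tested skeletal stem cell surface genes passed in either comparison. Cd200, one of the surface proteins by which skeletal stem cells are sorted, stood at 79.9 and 55.8 CPM in members, 16.3 and 1.16 CPM in Ly6a-expressing wells and 219 and 141 CPM outside. Thy1 stood at 32.4 and 73.5 CPM, 237 and 125 CPM and 19.8 and 29.4 CPM in the same order. Cd200 in members thus had values between the other groups.

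Some complement genes had higher values in members than in the non-cartilage wells outside, and none of the 13 tested passed in either comparison. Besides Serping1, C1s1, a protease of the classical pathway, stood at 174 and 129 CPM in members against 15.2 and 3.43 CPM (edgeR adjusted p = 0.370) and C2 at 75.1 and 71.3 CPM against 4.66 and 5.26 CPM (adjusted p = 0.190). On the fitted scale, 8 of 13 complement genes lay above 0, against 39.6% of all genes tested. Against Ly6a-expressing wells, Serping1 differed by -0.17 ± 0.46 SE (edgeR adjusted p = 0.981), while Cd55, which shields cells from complement, stood at 69.9 and 31.7 CPM against 222 and 444 CPM (adjusted p = 0.395).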

How the data were processed

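RNA was counted in single GFP-sorted femur cells of 2 animals, 1 plate each. The authors deposited 1 table of whole-number counts for 24866 genes and 658 wells. Per the submitters' processing notes it was made with build mm10 and CASAVA; the sources used here do not give the aligner, the gene models or whether duplicates were collapsed. A detected gene had a median of 18 counts per well and 23.1% of nonzero values were 1, so a count was not read as 1 molecule. CPM are counts of a well or of summed wells scaled to a total of 1000000. Symbols were matched to GENCODE gene models of the same build (23789 of 24866).

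Counts of wells were summed per animal and group and tested with the edgeR 4.0.16 quasi-likelihood test under R 4.3.3 (TMM scaling, filterByExpr, animal as a block since the groups share animals, Benjamini-Hochberg adjustment over all genes tested, threshold 0.05). Both comparisons with non-cartilage and Ly6a-expressing wells came from 1 fit of 8 sums, and that with all wells outside from 6 sums. The standard error is the absolute log2 difference over the square root of the F statistic. The test was also run on simulated data. Alternatives used DESeq2 1.42.0, limma 3.58.1 with a pseudocount of 1 CPM, and other limits. Named genes passed the threshold, differed the same way in both animals, held at least 30 CPM in the higher group and had no well with over 20% of its counts, up to 12 per direction. Genes of the lists with at least 30 CPM could also be named. The members and lists were chosen with earlier results of these data known. The 5 wells that missed the well limits were left out.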

Additional observations from a re-analysis of the deposited data

How the results depend on the processing

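No gene that passed reversed its direction under any alternative run. The same was so of the genes short of the threshold that were followed through these runs. Not every gene named above was followed. Without the replicate block 13 genes passed against the non-cartilage wells outside, 12 of them among the 22. Without it 10 passed against the Ly6a-expressing wells, 6 of them among the 7, and 19 against all wells outside, 17 of them among the 24. In the order non-cartilage wells outside, Ly6a-expressing wells and all wells outside, DESeq2 called 593, 634 and 567 genes and edgeR on wells thinned to 10000 counts called 139, 74 and 191. limma on mean CPM per well called 0, 0 and 0, with 1711, 1608 and 1652 genes at an unadjusted p under 0.05. A gate of 200 CPM gave 1 gene against the non-cartilage wells and 15 against all wells. A cartilage limit of 2000 CPM gave 1 against the non-cartilage wells. Members with no Ly6a count gave 6 against the non-cartilage wells, 1 against the Ly6a-expressing wells and a member share of 9.55% of kept wells (mean of both animals, against 12.5%). Members at 600 CPM gave 1, and members without much Tnmd 2, against the Ly6a-expressing wells; the latter gave 10 against the non-cartilage wells. The cause of these shifts was not tested. The scaling of DESeq2 within edgeR moved the median log2 difference of all genes against the non-cartilage wells from -0.24 to -0.13. Leaving out an animal gave member shares of 10.4% to 14.5%; for genes it left no residual degrees of freedom and so no test, and log2 ratios of single animals (with 1 CPM added) differed from the log2 difference of both by over 1 SE for 39 results without animal 1 (34 did not) and 30 without animal 2 (43 did not).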

Other observations

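Several groups of genes not described above gave no call in edgeR, and their values are given here. The chemokine Ccl11 stood at 158 and 209.9 CPM in members of animals 1 and 2, 16.5 and 43.5 CPM in Ly6a-expressing wells and 3.45 and 0.166 CPM in the non-cartilage wells outside, and Ccl7 at 195 and 149 CPM, 185 and 43.5 CPM and 12.4 and 9.41 CPM. Ebf2, a transcription factor of stromal and fat precursors, stood at 99.6 and 164 CPM, 107 and 59.9 CPM and 4.72 and 0.111 CPM in the same order, and Meox2, a homeobox gene, at 249 and 282 CPM, 108 and 99.2 CPM and 45.0 and 34.2 CPM. Adjusted p-values for these 4 genes were 0.304, 0.489, 0.356 and 0.166 against the wells outside.

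Genes of glycolysis and the response to low oxygen had lower values in members than in the non-cartilage wells outside. Of 17 tested, 15 were fitted below 0 and 2 above, against 39.6% of all genes tested above 0, with a median of -1.41, and none passed. Pkm, pyruvate kinase, stood at 137 and 109.6 CPM in members and 337 and 398 CPM outside (log2 difference -1.65 ± 0.25 SE, edgeR adjusted p = 0.166). Of 18 cell cycle genes, 16 were fitted higher in members than in Ly6a-expressing wells, against 48.6% of all genes tested, with a median of 1.22 and none past the threshold. Cdk1 stood at 47.8 and 102 CPM against 39.9 and 26.4 CPM (edgeR adjusted p = 0.701). The 26 ribosomal protein genes had medians of -0.17 and 0.12 in the comparisons with wells outside and with Ly6a-expressing wells.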
